A study of Rattus norvegicus with 16 samples.

Results

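The microRNAs described here are mir-204, mir-211 and mir-205, which were chosen by name for a proposed enrichment in rat kidney, a choice that rested on tissue levels in these libraries. Every position whose hairpin was rno-mir-204, rno-mir-211 or rno-mir-205 was taken, and the reads of each arm were summed. These are 3 of 392 hairpins, and 4 of their arms had a read among 711 arms in all. The label held for mir-205 and went against the data for the other two: mir-204-5p was highest in testis and mir-211-5p in spleen, and both were low in kidney. They are therefore called by their names below.

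Small RNA of 6 tissues (heart, kidney, liver, spleen, testis and the whole brain) was sequenced from adult male rats of the inbred strains BN-Lx (brown Norway rats carrying the polydactyly-luxate syndrome) and SHR (spontaneously hypertensive rats). Each tissue has 1 library per strain, and the study's methods take the tissues of a strain from 1 rat, so the 12 libraries stand for 2 animals. With 4 further livers, replicates 2 and 3 of each strain, 3 livers of each strain were compared. No group was treated, and all tissues were frozen untreated. The libraries held 26880 to 1064894 reads on hairpins in the six-tissue set and 1167607 to 3229461 in the further livers. The testis libraries were the shallowest, and they and the SHR liver of the six-tissue set had more PCR cycles than the rest. Markers fixed for brain, liver, spleen, heart and testis (mir-124 and mir-9, mir-122, 3 blood cell miRNAs, 3 muscle miRNAs, and mir-202, mir-34c and mir-449a) were higher in their own tissue than in every other library of the six-tissue set. The 3 kidney markers were not, because their sum was led by mir-192, which was higher in liver. Of those markers, mir-196a and mir-10b were highest in kidney.

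A microRNA is cut from a hairpin transcript, loaded into an Argonaute protein and pairs with messenger RNAs mainly through its seed, bases 2 to 8 from its 5′ end. mir-204 and mir-211 belong to 1 family with a shared seed; mir-204 is known from retinal pigment epithelium, choroid plexus and kidney, and mir-211 from melanocytes. mir-205 is known from epithelia, above all stratified ones, where it acts with the mir-200 family on the repressors ZEB1 and ZEB2. In RGSC3.4 coordinates the hairpins lie at chr1:226013001-226013103 on the + strand (mir-204), chr1:118642401-118642502 on the + strand (mir-211) and chr13:109352371-109352478 on the - strand (mir-205). In the RefSeq annotation of GRCr8, mir-204 lies within Trpm3 and mir-211 within Trpm1, which encode cation channels of the melastatin family, and no listed gene spans mir-205.

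The mature sequences that carried the reads, from RefSeq (GRCr8), are shown to let the shared and separate seeds be seen, with the seed in capitals.
rno-miR-204-5p: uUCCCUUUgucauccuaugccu
rno-miR-211-5p: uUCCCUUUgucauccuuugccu
rno-miR-205: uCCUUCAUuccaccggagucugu
Among 693 mature names in the RefSeq table, the first seed occurred in mir-204-5p and mir-211-5p alone, and that of mir-205 in mir-205 alone. The family members differ by A17U, with positions counted from 1 at the 5′ end of mir-204-5p. Printed again with that base in capitals, they show how late in the read the family members part.
rno-miR-204-5p: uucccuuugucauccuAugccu
rno-miR-211-5p: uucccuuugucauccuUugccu
Only perfect matches were kept by the authors, so a read is assigned to mir-204 or mir-211 by this base, and the shortest reads of the six-tissue set, at 17 nt, end on it. Reads that fit both hairpins were divided evenly, which gives the fractional counts in the SHR liver of replicate 2. The SHR liver of replicate 3 also has a count of 1 for each hairpin from 16-nt reads, which stop before the differing base.

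Almost all reads came from the 5p arms. Over the 16 libraries mir-204-5p had 25142.5 reads, mir-205-5p 1590 and mir-211-5p 827.5. mir-211-3p had 3 reads, all in spleen, 2 of them from BN-Lx and 1 from SHR. The 3p arms of mir-204 and mir-205 had 0 reads, which allows up to 0.0119% of the reads of mir-204 and 0.189% of those of mir-205. These limits, and the intervals below (exact binomial, 95%), cover counting error only, since PCR copies were not marked.

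Reads are given relative to the outlier-corrected mean (ocm), the mean over known arms of a library after its 3 highest arms are left out. A value of 1 is thus the level of an average known miRNA arm. The members were chosen by their tissue pattern, so the levels across tissues are described without a test.

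mir-204-5p was a testis and brain miRNA in these rats. In BN-Lx it stood at 14.98 in testis (473 reads), 7.72 in brain (11048 reads), 2.11 in spleen (1810 reads), 0.575 in kidney (401 reads), 0.380 in heart (175 reads) and 0.227 in liver (90 reads). In SHR the levels were 12.5 in testis (440 reads), 5.34 in brain (6069 reads), 3.78 in spleen (2088 reads), 0.795 in kidney (660 reads), 0.463 in heart (338 reads) and 0.244 in liver (104 reads). The order of the tissues was the same in both strains, and at no step of that order did the values of neighbouring tissues overlap. Testis exceeded kidney 26.0-fold in BN-Lx and 15.7-fold in SHR, and kidney exceeded only heart and liver. On the log2 scale the ratio of kidney to testis, from the means of the strains, was -4.33, and with TMM scaling it was -3.27. With TMM scaling spleen also came level with brain in SHR, at 4701 against 4685 TMM-scaled CPM (counts relative to total reads, on the scale of edgeR). As a share of all hairpin reads, mir-204-5p made up 1.76% (1.61 to 1.92) of BN-Lx testis and 1.51% (1.37 to 1.66) of SHR testis. It ranked 12 among the 324 arms with a read in BN-Lx testis and 97 among 462 in BN-Lx kidney.

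mir-211-5p was far scarcer and was highest in spleen. Its level there was 0.566 in BN-Lx (486 reads) and 0.170 in SHR (94 reads). Brain followed with 0.108 (155 reads) and 0.0457 (52 reads). The testis values of 0.0950 and 0.0851 rest on 3 reads each, lie at the limit that a count of 0 allows there, and overlap those of brain. Kidney stood at 0.00717 (5 reads) and 0.00722 (6 reads), liver at 0.00757 (3 reads) and 0.00940 (4 reads), and heart at 0.00434 (2 reads) and 0.00684 (5 reads). At 2 to 6 reads these 3 tissues cannot be ordered. Spleen exceeded kidney 79.0-fold in BN-Lx and 23.6-fold in SHR. The levels of 13 of 697 arms (1.87%) were more than 5-fold higher in spleen than elsewhere in both strains, among them mir-211-3p on its 3 reads but not mir-211-5p, which led its next tissue 5-fold in BN-Lx only.

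mir-205-5p was the kidney miRNA of the set. It stood at 1.25 in BN-Lx kidney (874 reads) and 0.565 in SHR kidney (469 reads). Its next levels were 0.0618 in BN-Lx spleen (53 reads) and 0.0466 in SHR brain (53 reads), so kidney led by 20.3-fold and 12.1-fold. BN-Lx brain had 0.0258 (37 reads) and SHR spleen 0.0235 (13 reads), and the values of brain and spleen overlapped. Liver held 0.0202 (8 reads) and 0.0117 (5 reads), and heart 0.00651 (3 reads) and 0.0137 (10 reads). Both testis libraries had 0 reads, but at their depth 0 reads allow a level of up to 0.0950 in BN-Lx and 0.0851 in SHR. Against those limits kidney was at least 13.2-fold higher in BN-Lx and at least 6.63-fold higher in SHR. Kidney thus exceeded every other tissue more than 5-fold in both strains, as it did for 12 of 697 arms (1.72%).

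**Figure D1:**
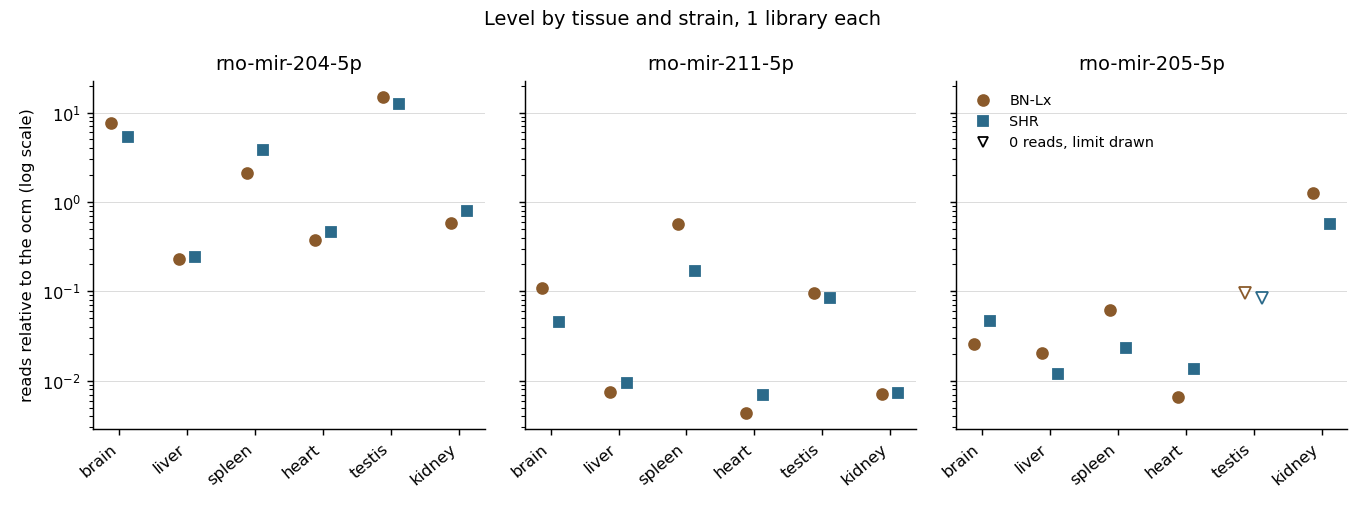
Reads relative to the ocm (log scale) of the 3 member 5p arms in each tissue, with 1 point per library and open triangles at the limit that 0 reads allow. mir-204-5p peaks in testis and brain, mir-211-5p in spleen, and mir-205-5p in kidney.

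Markers of other cells bear on the kidney value of mir-205, and their part in it was not tested. mir-203-3p, a marker of stratified epithelium, was at 1.96 in BN-Lx and 1.08 in SHR kidney, higher in BN-Lx like mir-205. It was not particular to kidney, with 0.954 to 1.10 in BN-Lx and 0.627 to 1.13 in SHR livers. mir-205-5p did not exceed 0.0202 in those livers. The 4 simple epithelium markers found under their listed arms (mir-200a, mir-200b, mir-200c and mir-141, of 5 listed) went the other way, with a sum of 5.33 in BN-Lx and 20.99 in SHR kidney. The 3 testis markers were also higher in BN-Lx kidney, with a sum of 1.74 against 0.154 in SHR, led by mir-34c-5p with 1151 against 124 reads. mir-196a-5p stood at 0.133 in BN-Lx and 0.374 in SHR kidney, and mir-10b-5p at 1.45 and 2.80. In bulk tissue, fewer cells of a type and less RNA per cell cannot be told apart.

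The arms whose pattern over the 12 libraries was most like that of each member were sought among 400 arms with at least 100 reads, by Pearson's r on log2(ocm-scaled reads + 0.01). For mir-205-5p they were mir-10b-3p (r = 0.92), mir-196b-3p (r = 0.92) and mir-200c-3p (r = 0.90). Their mean levels in kidney were 0.0586, 0.220 and 0.185, all below that of mir-205-5p. For mir-204-5p they were mir-221-5p (r = 0.91), mir-222-3p (r = 0.88) and mir-34b-5p (r = 0.86). For mir-211-5p they were mir-140-5p (r = 0.86), mir-191-5p (r = 0.78) and mir-25-5p (r = 0.77). mir-204-5p and mir-211-5p had r = 0.72 with each other, and mir-205-5p had r = -0.30 with mir-204-5p and -0.23 with mir-211-5p. These values share libraries, depth and scaling, and describe the 12 libraries only. Some rest on few reads, with 139 over the 12 libraries for mir-221-5p and 100 for mir-10b-3p. In testis mir-205-5p and the arms most like it were at 0, where the 0.01 added lies below the limit that 0 reads allow.

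Strain took no part in the choice of members and was tested with tissue as a term. The tissues of a strain come from 1 rat, so this fit and the sign-flip tests below use tissues as the replicates. Their p-values measure the spread between tissues and cannot tell strain from animal. Over the 6 tissues edgeR's quasi-likelihood test called 0 of 457 arms (0%) at an adjusted p of 0.05, none of the 3 members included, while 8 arms had an unadjusted p under 0.05 (18 with DESeq2, which also called 0). The log2 fold change of SHR over BN-Lx was 0.14 ± 0.23 (SE) for mir-204-5p, -0.68 ± 0.48 for mir-211-5p and -0.43 ± 0.50 for mir-205-5p, each with an adjusted p of 0.996 (edgeR). The median over all arms tested was -0.01. Leaving out each tissue in turn, the value of mir-211-5p lay between -0.18 (without spleen) and -0.85 (without kidney). That of mir-205-5p lay between -0.04 (without spleen) and -0.82 (without brain), and was -0.11 without kidney and -0.67 without heart.

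Single tissues differed more than this mean. mir-205-5p was 2.22-fold higher in BN-Lx than in SHR kidney relative to the ocm (2.05-fold, 1.83 to 2.30, relative to total reads). Of the 185 arms with at least 100 reads in the kidney pair, 44 (23.8%) differed 2-fold or more in either direction. In spleen, mir-211-5p was 3.33-fold higher in BN-Lx (3.48-fold, 2.79 to 4.39, relative to total reads), while mir-204-5p was 1.79-fold higher in SHR (1.71-fold, 1.61 to 1.83). There 28 of 180 arms (15.6%) differed 2-fold or more. The family members thus went in opposite directions between the spleens. Both family members were higher in the BN-Lx than in the SHR brain, mir-204-5p 1.45-fold (1.47-fold, 1.43 to 1.52, relative to total reads) and mir-211-5p 2.37-fold (2.41-fold, 1.75 to 3.36). A difference of 2-fold or more was found there for 36 of 301 arms (12%). mir-205-5p went the other way there, 1.80-fold higher in SHR (1.77-fold, 1.14 to 2.78, relative to total reads). These pairs have 1 library per strain, so they compare libraries and not strains.

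**Figure D2:**
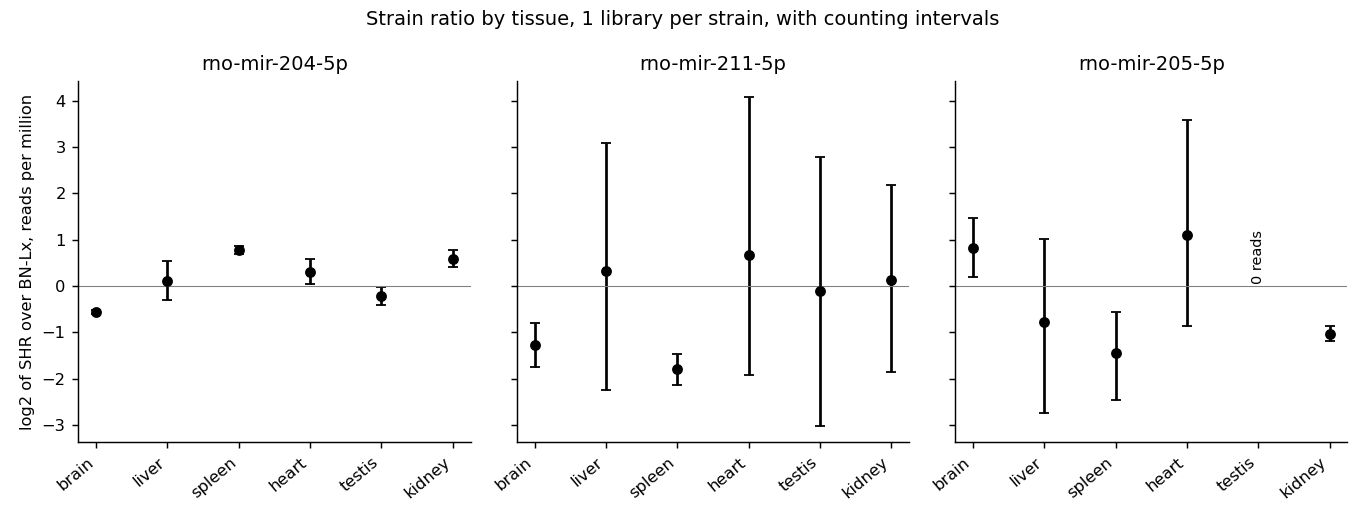
The log2 ratio of SHR over BN-Lx relative to total reads for the 3 member 5p arms in each tissue, from 1 library per strain, with 95% counting intervals. The interval of mir-211-5p lies below 0 in spleen and brain and that of mir-205-5p below 0 in kidney and spleen and above 0 in brain, while that of mir-204-5p lies above 0 in spleen, heart and kidney and below 0 in brain and testis.

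Markers also differed between these libraries, some in the direction of the members and some against it, and their part was not tested. In brain the 6 markers summed to 19.1 in BN-Lx and 49.8 in SHR. Within that sum the 3 copies of mir-124 were higher in SHR (5.54 each in BN-Lx, 16.2 in SHR), and the 3 copies of mir-9 were higher in BN-Lx (0.82 each against 0.40), like mir-204-5p and mir-211-5p. The 4 simple epithelium markers summed to 1.44 in BN-Lx and 0.0361 in SHR, with 1 of them at 0 in SHR. The 3 spleen markers summed to 158 in the BN-Lx and 168 in the SHR spleen, but they went opposite ways. mir-150-5p was higher in BN-Lx (71.2 against 47.4), like mir-211-5p, while mir-223-3p (85.6 against 118) and mir-142-3p (1.62 against 2.25) were higher in SHR, like mir-204-5p. The 2 red cell markers summed to 76.6 and 50.3. The 4 pancreas markers found (of 5) were detected in both spleens and summed to 0.183 in BN-Lx and 0.608 in SHR, opposite to mir-211-5p and like mir-204-5p.

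The share of mir-211 among the 5p reads of the family needs no scaling between libraries. It was 21.2% (19.5 to 22.9) in BN-Lx spleen and 4.31% (3.50 to 5.25) in SHR spleen. The brain shares were 1.38% (1.18 to 1.62) in BN-Lx and 0.850% (0.635 to 1.11) in SHR. The other 8 libraries of the six-tissue set lay between 0.630% and 3.704% on 2 to 6 reads of mir-211 each. Spleen thus had the highest share in both strains, and the intervals of its libraries did not overlap, but that of SHR liver (1.02 to 9.21) takes in the SHR spleen value. The mean log2 difference of the odds, SHR minus BN-Lx, was -0.51 ± 1.09 (SD, n = 6 tissues), lower in SHR in 3 of 6 tissues, with p = 0.344 in a two-sided exact sign-flip permutation test, whose smallest possible p is 0.0313. Spleen alone contributed -2.58, and without it the mean was -0.10. Counting only reads that run past the differing base, the share in spleen was 20.8% and 4.41%.

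**Figure D3:**
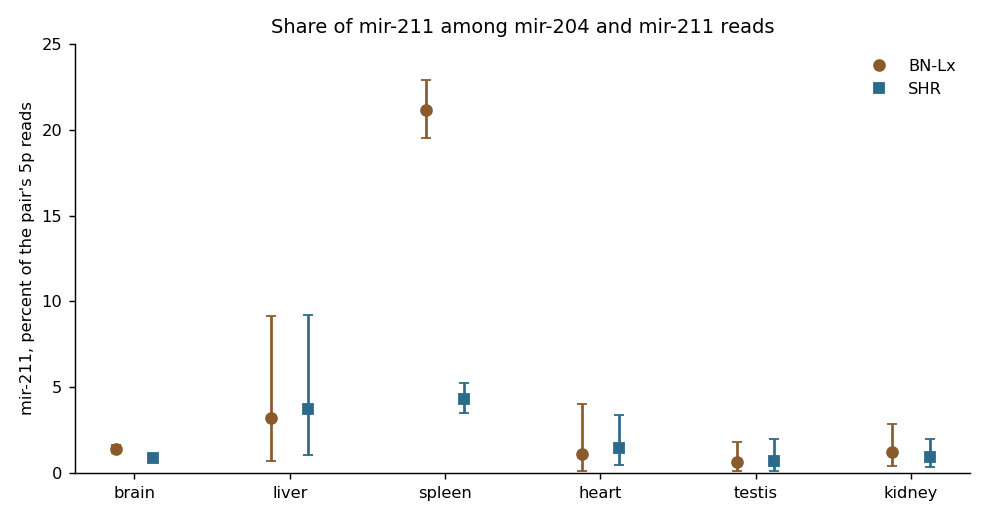
Reads of mir-211-5p as a percent of all mir-204-5p and mir-211-5p reads in each tissue and strain, with exact 95% intervals. BN-Lx spleen stands at 21.2%, SHR spleen at 4.31%, and the other libraries between 0.630% and 3.704%.

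Read ends were not used to choose the members either. The main form of mir-204-5p ran from position 26 to 47 of the hairpin, 22 nt as in RefSeq, and made up 70.9% of its reads in the six-tissue set. The share with the most frequent start averaged 97.5% in BN-Lx and 97.9% in SHR, a difference of 0.432 ± 1.49 percentage points (SD, n = 6; exact sign-flip p = 0.625, adjusted 0.906). The share with the most frequent end averaged 75.0% and 74.9%, a difference of -0.104 ± 4.06 points (exact sign-flip p = 0.906, adjusted 0.906). A start 1 base later, which moves the seed by 1 base, was seen in 1.40% to 4.57% of mir-204-5p reads in the 12 libraries but in 1 read, 0.0691% of 1446.5, of the further livers. The livers of the six-tissue set had 2.22% (0.270 to 7.80) in BN-Lx, 2 of 90 reads, and 2.88% (0.599 to 8.20) in SHR, 3 of 104 reads.

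mir-211-5p had more short reads in brain than in spleen. Of its brain reads, 47.7% (39.7 to 55.9) in BN-Lx and 38.5% (25.3 to 52.98) in SHR were of 17 or 18 nt. In spleen the shares were 9.05% (6.66 to 11.96) and 10.6% (5.22 to 18.7). mir-204-5p had 12.2% (11.6 to 12.9) and 10.02% (9.27 to 10.8) in brain, and 6.41% (5.32 to 7.64) and 7.81% (6.69 to 9.04) in spleen. Reads that ended on the base in which the family members differ were 43 of 155 for mir-211-5p and 1032 of 11048 for mir-204-5p in the BN-Lx brain, and 14 of 52 and 484 of 6069 in the SHR one. The mir-211 level in brain therefore rests in part on reads told apart by their last base. Without those reads mir-211 made up 1.11% of the family in the BN-Lx brain and 0.676% in that of SHR.

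The 3′ ends of mir-205-5p were spread over 21 to 23 nt in kidney. The 23-nt end led beyond counting error in SHR, and was level with the 22-nt end in BN-Lx. In BN-Lx kidney 38.9% (35.7 to 42.2) of its reads ended at 23 nt, 37.4% (34.2 to 40.7) at 22 nt and 15.3% (13.0 to 17.9) at 21 nt from the main start. In SHR kidney the shares were 47.5% (42.9 to 52.2), 22.6% (18.9 to 26.7) and 14.7% (11.6 to 18.2). The 22-nt end was thus less frequent in the SHR library beyond counting error, with no replicate to set beside it.

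**Figure D4:**
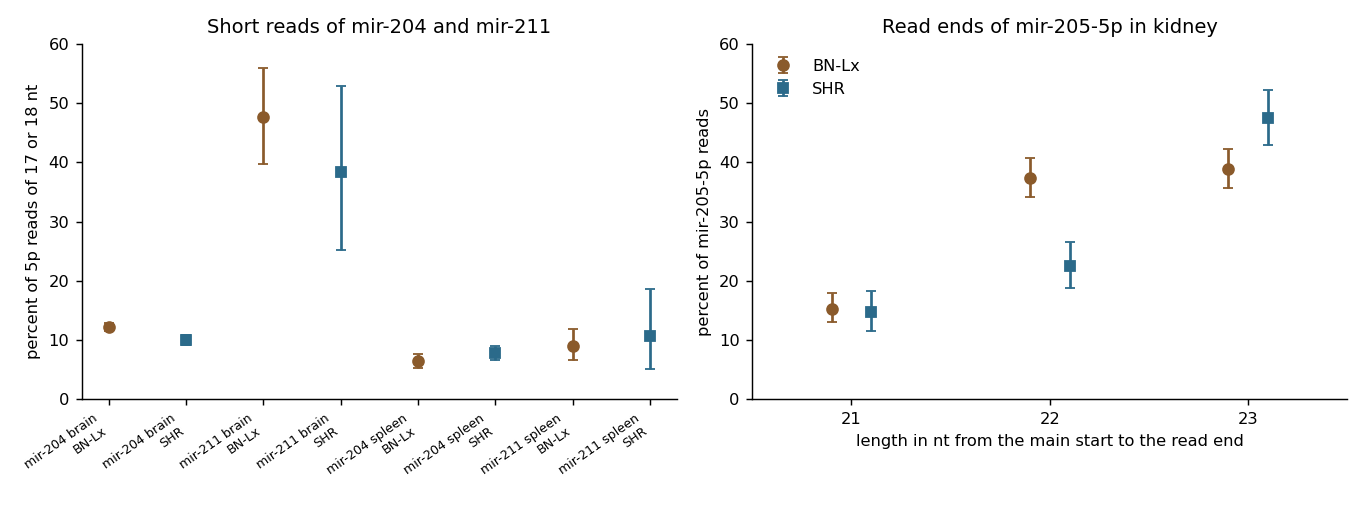
Left, the percent of mir-204 and mir-211 5p reads of 17 or 18 nt in brain and spleen; right, the percent of mir-205-5p kidney reads ending at 21, 22 or 23 nt from the main start, all with exact 95% intervals. Short reads of mir-211 reach 47.7% and 38.5% in brain, and the 22-nt end of mir-205 is 37.4% in BN-Lx against 22.6% in SHR.

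In liver, where each strain had 3 animals, mir-204-5p was the member whose strain ranges did not overlap. The share of all arms with separate ranges is not given here, so this cannot be called particular to mir-204-5p. Relative to the ocm the BN-Lx livers had 0.227, 0.0318 and 0.0723 in replicates 1, 2 and 3 (90, 30 and 60 reads), and the SHR livers 0.244, 0.304 and 0.300 (104, 675.5 and 681 reads). All SHR livers were above all BN-Lx livers, but in replicate 1, the pair of the six-tissue set, by less than counting error (90 against 104 reads, a ratio of 1.08 with an interval of 0.806 to 1.45 relative to total reads). The means were 0.110 ± 0.103 in BN-Lx and 0.283 ± 0.0335 in SHR (SD, n = 3), with p = 0.10 in a two-sided exact permutation test, the smallest that 3 against 3 allows. SHR exceeded BN-Lx 1.08-fold in replicate 1, 9.58-fold in replicate 2 and 4.15-fold in replicate 3.

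edgeR called 0 of 271 arms (0%) between the livers of the strains, with 6 arms at an unadjusted p under 0.05, and DESeq2 called 0 with 9 such arms. The log2 fold change of mir-204-5p, SHR over BN-Lx, was 1.42 ± 0.73 (SE), with an adjusted p of 0.995 (edgeR), beside a median of -0.08 over all arms tested. Without the BN-Lx liver of replicate 1 it was 2.51 ± 0.58 (adjusted p = 0.395), and in the 4 further livers alone 2.73 ± 0.43 (adjusted p = 0.300). Over the alternatives it lay between 0.999 and 2.73, with adjusted p of 0.300 or more.

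Markers of the tissues in which mir-204-5p was highest were low in the livers. The brain markers summed to 0.0116 to 0.109 in BN-Lx and 0.00132 to 0.108 in SHR livers, and the 3 testis markers to 0.0157 to 0.0858 and 0.00765 to 0.117. The spleen markers summed to 6.73 to 14.0 in BN-Lx and 11.2 to 16.6 in SHR livers, and the red cell markers to 8.14 to 10.9 and 2.81 to 9.78. The ranges of the strains overlap for each of these lists. Between livers of the same number, however, the spleen sum was higher in SHR in 3 of 3 (16.6 against 14.0, 11.4 against 6.73 and 11.2 against 9.93). The red cell sum was lower in SHR in 3 of 3 (9.78 against 10.9, 2.81 against 8.71 and 4.51 against 8.14). Among the spleen markers mir-142-3p went against their sum, lower in SHR in 3 of 3 (0.0916 against 0.116, 0.324 against 0.381 and 0.234 against 0.507). Of the spleen markers, mir-150-5p was at 5.21, 0.974 and 2.21 in the BN-Lx livers of replicates 1, 2 and 3, the same order as mir-204-5p. mir-223-3p kept that order too (8.69, 5.37 and 7.21), but mir-142-3p was lowest in replicate 1, where mir-204-5p was highest. In the SHR livers mir-150-5p was at 6.40, 3.46 and 3.53, the reverse of the order of mir-204-5p there. The part of these markers in the difference was not tested.

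mir-205-5p was low in liver, and the ranges of the strains overlapped, although SHR was below BN-Lx at each replicate number (ratios of 0.582, 0.911 and 0.732). The BN-Lx livers had 0.0202, 0.0148 and 0.00844 (8, 14 and 7 reads), and the SHR livers 0.0117, 0.0135 and 0.00618 (5, 30 and 14 reads). The means were 0.0145 ± 0.00589 and 0.0105 ± 0.00383 (SD, n = 3; exact permutation p = 0.40), with a log2 fold change of -0.45 ± 0.62 (adjusted p = 0.995, edgeR). mir-211-5p did not pass the filter on low counts. BN-Lx livers held 3, 0 and 0 of its reads, against 4, 7.5 and 2 for SHR (exact permutation p = 0.50 on the level relative to the ocm).

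**Figure D5:**
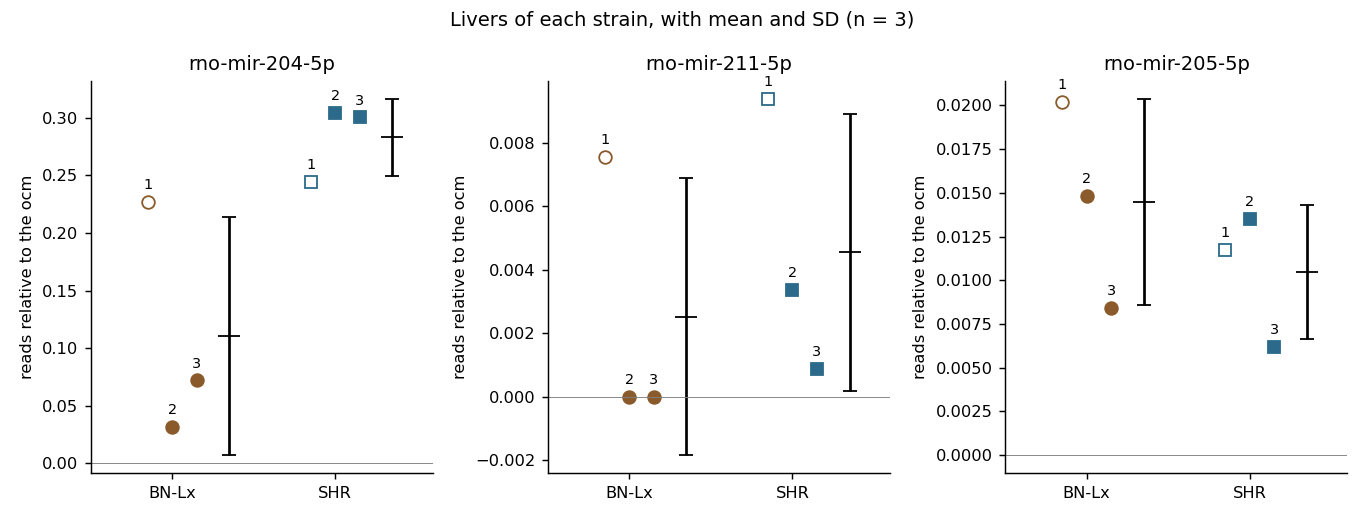
Reads relative to the ocm of the 3 member 5p arms in the 3 livers of each strain, numbered by replicate, with open symbols for the six-tissue set and filled ones for the further livers; bars show the mean and SD (n = 3). For mir-204-5p every SHR liver lies above every BN-Lx liver, and replicate 1 of BN-Lx, at 0.227, lies nearest to SHR.

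The further livers were also compared with those of the six-tissue set, since both sets enter the liver values. With strain as a term edgeR called 77 of 302 arms (25.5%), 53 higher and 24 lower in the further livers. Scaled by total reads, the calls were 21 higher and 53 lower, as the median of all arms moved from 0.16 to -0.47 on the log2 scale. Neither member tested was among the 77 called: the log2 fold change was -0.80 ± 0.73 (SE) for mir-204-5p (adjusted p = 0.455) and -0.19 ± 0.69 for mir-205-5p (adjusted p = 0.856). Without the BN-Lx liver of replicate 1 these were 0.89 and 0.34, of the opposite sign.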

How the data were processed

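The authors sequenced small RNA on SOLiD, trimmed the linker, mapped reads with SHRiMP to pre-miRNA hairpins annotated on RGSC3.4 and kept perfect matches. They deposited, without normalization, estimated counts of reads for each start and end on a hairpin, a read that fits several hairpins being divided evenly. A list of piRNA clusters was not used here.

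Reads were summed per arm, those within 20 nt of the main arm being kept with it. Levels are reads divided by the ocm, the mean over 595 known arms without the top 3. Fits used edgeR 4.0.16 (quasi-likelihood, TMM, filterByExpr, two-sided, Benjamini-Hochberg at 0.05, SE as the fold change divided by the root of F) on counts rounded to whole numbers over all arms, with DESeq2 1.42.0 as an alternative. They were tested on simulated data. Other software was R 4.3.3, Python 3.11.15 and scipy 1.17.1. Named were all member arms with a read, and per member the 3 most similar arms. Livers are separate animals. Same-numbered livers deviated together across arms (r = 0.67, 0.57 and 0.30), but replicate 1 of both strains is the six-tissue set. No correlation was computed between livers of different numbers, so these values cannot show that the numbers pair the animals. Comparisons by replicate number are descriptions only. The members, marker lists and tests were chosen with earlier results of these data known.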

Additional observations from a re-analysis of the deposited data

How the results depend on the processing

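The liver fits called 0 arms under all 16 alternatives, the replicate block (0 arms, smallest adjusted p 0.376) and the set of livers as a term, chosen after seeing the data, included, and the six-tissue strain fits called 0 under all 12. With the replicate block mir-204-5p had a log2 fold change of 1.85 (adjusted p = 0.525), and the block changed no call. The signs of the members' strain differences held in each of these fits. The log2 ratio of kidney to the highest other tissue was -4.33 for mir-204-5p (-3.27 with TMM scaling), -5.68 for mir-211-5p and 4.41 for mir-205-5p (3.60 in SHR alone), with no change of sign. For the further livers against the six-tissue livers, leaving out 1 liver gave 15 to 47 calls against 77, with fewer samples in the fit. There mir-204-5p reversed to 0.89 without the BN-Lx liver of replicate 1 and to 0.0019 with no strain term, and mir-205-5p to 0.34 without the BN-Lx liver of replicate 1 and 0.07 without that of replicate 3. Leaving out 1 liver gave values from -1.90 to 0.89 for mir-204-5p and from -0.49 to 0.34 for mir-205-5p; the cause was not tested. The difference in the mir-204-5p start share turned to -0.100 points without heart, and that in the end share to 1.95 points for reads of at least 20 nt, 1.01 without liver and 0.589 without testis, none past the threshold; the cause was not tested. The mir-211 share kept its sign and p above 0.05 throughout (-0.69 to -0.10). At testis depth, the 0 reads of mir-205 allow levels of up to 0.0950 in BN-Lx and 0.0851 in SHR relative to the ocm. In the six-tissue set mir-211 rests on 2 to 6 reads outside spleen and brain.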
